A study of Sus scrofa with 6 samples.

Results

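The BCL2 family decides, at the outer membrane of mitochondria, whether a cell survives or dies by apoptosis. Its pro-survival members hold the pore-forming members BAK and BAX in check, and its BH3-only members, each named for a short binding segment, are made or switched on under stress and occupy the pro-survival proteins. Loss of granulosa cells by apoptosis is the usual way in which an ovarian follicle degenerates, so the balance of these genes is followed closely in this cell type.

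The genes described here are 10 family members, taken by symbol from 35670 gene identifiers in the deposited counts. They are the pro-survival genes BCL2, BCL2L1, BCL2L2, BCL2A1 and MCL1 and the pro-death genes BCL2L11, BAK1, BAD, BID and BMF. Each symbol matched 1 identifier, and 9 of the 10 had enough reads to be tested. BCL2A1 did not, and is described by its reads. The rule goes by name and uses no measured value, but the 10 members were chosen with earlier results of these data known. The family genes BAX and PMAIP1 are left out by the rule and are described further below.

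RNA was sequenced from granulosa cells, the somatic cells around the oocyte, of the pig (Sus scrofa), which had been aspirated from small healthy follicles and grown as primary cultures in medium with serum. In the heat group (n = 3) the cultures spent 6 h at 42 °C, and in the control group (n = 3) they stayed at 37 °C for the same time. The labels name no breed, age, sequencing batch or animal. The submitters call the samples biological replicates without saying whether they were separate animals or cultures, so p-values measure the spread between these samples, which may be technical.

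Libraries held between 20411952 and 29606378 counts in heat and between 18711440 and 22599356 in control. They were unequally alike. Heat 1 and heat 2 correlated at 0.991 across tested genes (Pearson r of log2 CPM; CPM are counts divided by the TMM-scaled library total and shown on the usual per-library scale), and control 2 and control 3 at 0.990, but heat 3 correlated with the other heat libraries at no more than 0.916 and control 1 with the other controls at no more than 0.905. Of 14242 tested genes, 956 were called higher and 615 lower in heat at an edgeR adjusted p below 0.05. Scaled by library totals alone, the split was 1573 higher and 413 lower, with the median of all genes shifted by 0.12 on the log2 scale. Granulosa markers were partly absent. INHA was at 0.061 CPM or less in heat and 0.305 CPM or less in control, and FSHR at 0.093 CPM or less in heat and between 0.400 and 2.14 CPM in control. CYP11A1, which starts steroid synthesis, was at 57.6 to 69.5 CPM in heat and 28.9 to 43.9 CPM in control. GATA4 was at 66.0 to 82.0 CPM in heat and 9.55 to 38.2 CPM in control. INHBA lay the other way, at 154 to 183 CPM in heat and 198 to 386 CPM in control. Of the 7 granulosa markers tested, 0 were called higher and 0 lower in edgeR, these 3 among them. Summed stromal markers (6 matched) ranged from 28030 to 87780 CPM in heat, and stood at 59010 CPM in control 1 but at 7409 and 6686 CPM in the other controls. Nearly all of this sum came from the collagen genes COL1A1, COL1A2 and COL3A1, while DCN and LUM were highest in control 1. In such bulk RNA, fewer cells of a type and less RNA per cell cannot be told apart.

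The question asked of the family was which members change with heat. The BH3-only gene BCL2L11, which encodes BIM, was the 1 member called, at about 4 times its control level. BMF, another BH3-only gene, stood about 2 times higher in heat, and BID about 2 times lower, each with no overlap between the groups but with an edgeR adjusted p just above the threshold. None of the 4 tested pro-survival genes passed in edgeR, DESeq2 or limma-voom, and 0 had an unadjusted p below 0.05 in edgeR. Thus 1 of 9 tested members rose and 0 fell, while 6.71% of all tested genes rose, 4.32% fell and 11.0% were called either way. The median log2 fold change, heat minus control, was 0.20 over the 9 tested members and 0.05 over all tested genes, and 6 members had a positive and 3 a negative value. At an unadjusted p below 0.05 in edgeR there were 3 of 9 members, BCL2L11, BMF and BID, beside 4831 of all 14242 tested genes. DESeq2 called these 3 after adjustment, with BID the 1 lower, beside 3910 of all 14242 genes, 2118 higher and 1792 lower.

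**Figure D1:**
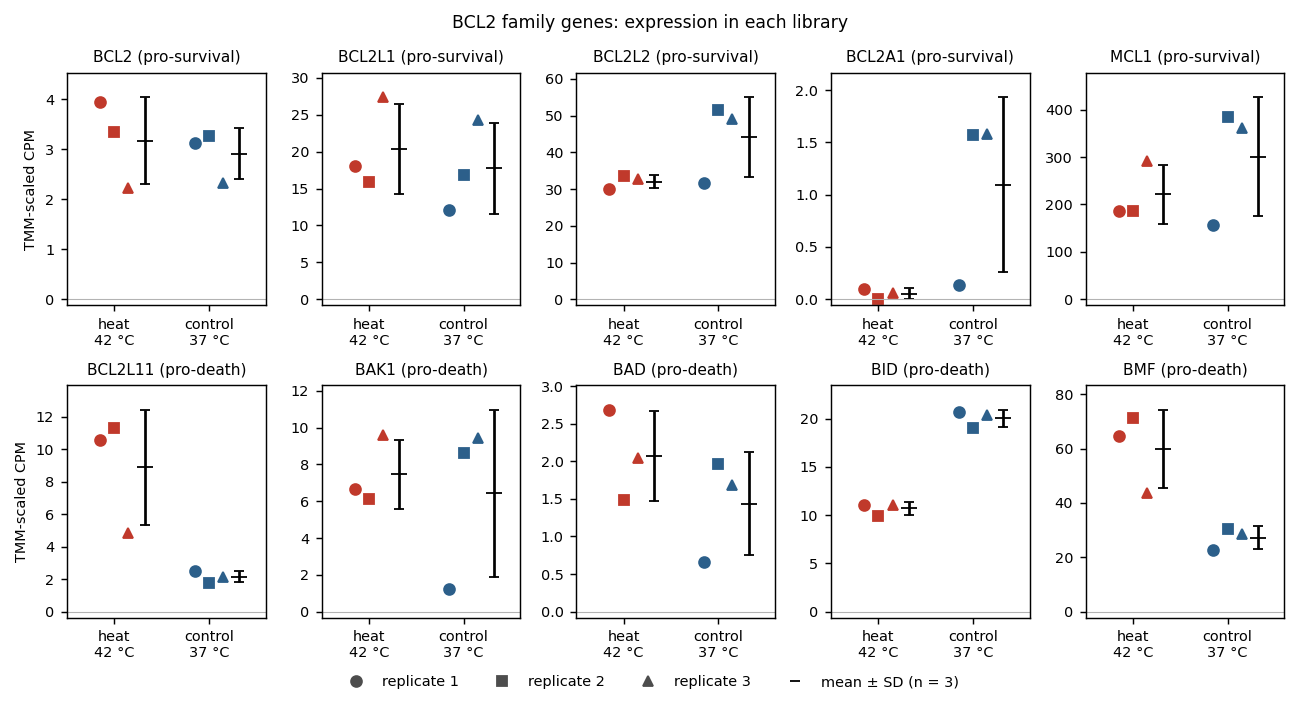
TMM-scaled CPM of each of the 10 genes in the 3 heat libraries (red) and the 3 control libraries (blue), with a separate linear axis for every gene; black marks give mean ± SD (n = 3), and marker shapes give the replicate number, which does not pair libraries. BCL2L11 and BMF lie higher and BID lower in every heat library than in any control, while BAK1, BAD, MCL1 and BCL2A1 are lowest or near their lowest in control 1.

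Among the BH3-only genes, BIM binds every pro-survival protein of the family and is held on dynein motors through the light chain DYNLL1 in unstressed cells. BCL2L11 (ENSSSCG00000060053) measured 10.6, 11.3 and 4.82 CPM in heat 1, 2 and 3, against 2.47, 1.79 and 2.13 CPM in control 1, 2 and 3. Every heat library lay above every control, but heat 3 was well below heat 1 and heat 2. These levels rest on 212, 243 and 158 reads in heat and 37, 41 and 43 reads in control. The mean was 8.89 ± 3.54 CPM in heat and 2.13 ± 0.340 CPM in control (SD, n = 3 each), a log2 fold change of 2.06 ± 0.43 (SE) with an edgeR adjusted p of 0.0355. By p-value it ranked 573 of 14242 genes. On Sscrofa11.1 the gene spans chromosome 3 from 45156791 to 45202996. The annotated end overlaps ACOXL, which spans 45202875 to 45563062 and had 2 reads over the heat libraries and 0 over the controls. A second overlapping locus, LOC110260116, was not matched to the counts, and its share of the reads is unknown.

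The call of BCL2L11 ended when heat 1, heat 2, control 2 or control 3 was left out, with log2 fold changes of 1.92, 1.87, 1.91 and 2.02 and edgeR adjusted p-values of 0.158, 0.148, 0.165 and 0.152. In those fits the test called 7, 6, 0 and 0 genes in all, and with the near-identical libraries summed BCL2L11 had a value of 1.81 (edgeR adjusted p = 0.405).

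BMF, the BH3-only protein tethered to myosin motors through DYNLL2, followed the same libraries at a smaller scale. BMF levels were 64.7, 71.4 and 43.7 CPM in heat 1, 2 and 3, against 22.7, 30.5 and 28.6 CPM in control 1, 2 and 3. The groups did not overlap, and the lowest heat library was again heat 3. The mean was 59.9 ± 14.5 CPM in heat and 27.3 ± 4.10 CPM in control (SD, n = 3 each), and the log2 fold change of 1.13 ± 0.31 (SE) missed the threshold with an edgeR adjusted p of 0.0554. BMF passed without heat 3 (log2 fold change 1.30, adjusted p = 0.0129) and without control 1 (0.99, adjusted p = 0.0495), and in DESeq2 with all libraries (adjusted p = 0.0142). It did not pass without heat 1, heat 2, control 2 or control 3 (adjusted p between 0.190 and 0.194) or with near-identical libraries summed (adjusted p = 0.541).

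BID, which caspase-8 cuts to carry a death receptor signal to mitochondria, was the one member with a tight group on each side. Its level was 11.1, 9.89 and 11.1 CPM in heat 1, 2 and 3, against 20.7, 19.1 and 20.3 CPM in control 1, 2 and 3. All heat libraries lay below all controls, and neither heat 3 nor control 1 stood apart for this gene. The mean was 10.7 ± 0.694 CPM in heat and 20.05 ± 0.881 CPM in control (SD, n = 3 each). The log2 fold change was -0.91 ± 0.26 (SE, edgeR adjusted p = 0.0592). BID passed without heat 3 (-0.95, adjusted p = 0.0223), without control 1 (-0.91, adjusted p = 0.0294) and in DESeq2 with all libraries (adjusted p = 0.00581). It did not pass without heat 1, heat 2, control 2 or control 3 (adjusted p between 0.195 and 0.224) or with near-identical libraries summed (adjusted p = 0.577). CASP8 itself measured 20.0, 21.9 and 20.7 CPM in heat and 22.9, 33.7 and 31.6 CPM in control (edgeR adjusted p = 0.243, not called).

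BCL2L11, BMF and BID were the 3 of 9 tested members whose groups did not overlap, 2 higher and 1 lower in heat. Among all tested genes 37.8% showed no overlap, 20.9% higher and 16.8% lower.

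**Figure D2:**
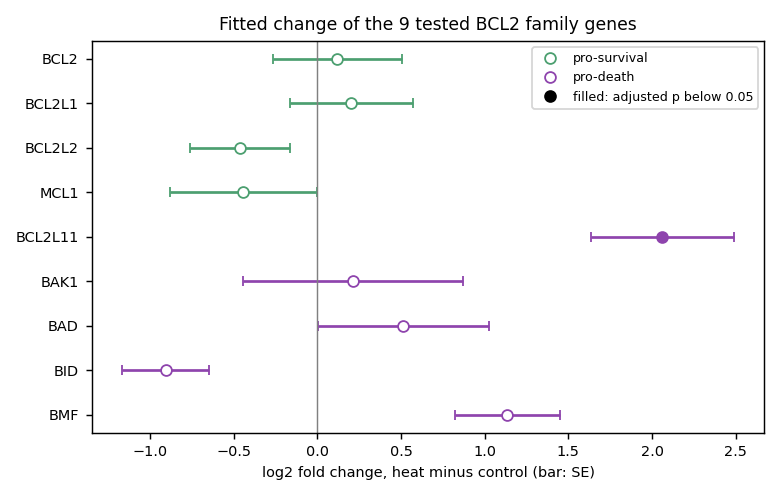
Fitted log2 fold change (heat minus control, edgeR) of the 9 tested members with its SE, pro-survival genes in green and pro-death genes in purple; a filled point marks an adjusted p below 0.05. BCL2L11 at 2.06 is the filled point, BMF at 1.13 and BID at -0.91 are open, and the other values lie between -0.46 and 0.51.

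BAD, the BH3-only protein that growth factor signalling keeps bound to 14-3-3 proteins, was among the members with the fewest reads. BAD levels were 2.69, 1.49 and 2.04 CPM in heat 1, 2 and 3, against 0.667, 1.96 and 1.68 CPM in control 1, 2 and 3. Control 1 held only 10 reads, and the groups overlapped. The log2 fold change was 0.51 ± 0.51 (SE, edgeR adjusted p = 0.496).

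BAK1 encodes BAK, the pore former that sits in the mitochondrial membrane of healthy cells. Its level was 6.67, 6.13 and 9.61 CPM in heat 1, 2 and 3, against 1.20, 8.63 and 9.46 CPM in control 1, 2 and 3. The outlying value was control 1, which held 18 reads where the other controls held 198 and 191. With all libraries the log2 fold change was 0.21 ± 0.66 (SE, edgeR adjusted p = 0.839). It turned to -0.30 without control 1 (adjusted p = 0.453) and to -0.03 without heat 3 (adjusted p = 0.981), so no direction can be given for BAK1.

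Of the pro-survival genes, MCL1 encodes a short-lived protein that restrains BAK and binds BIM and NOXA. MCL1 was at 185, 186 and 292 CPM in heat 1, 2 and 3, against 156, 384 and 361 CPM in control 1, 2 and 3. Control 1 was the lowest of all 6 libraries, so the groups overlapped although control 2 and 3 were the highest. The mean was 221 ± 61.7 CPM in heat and 300.5 ± 125 CPM in control (SD, n = 3 each), with a log2 fold change of -0.44 ± 0.44 (SE, edgeR adjusted p = 0.492).

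BCL2L2, which encodes BCL-W, showed the same order of libraries among the controls. BCL2L2 levels were 29.9, 33.4 and 32.7 CPM in heat 1, 2 and 3, against 31.7, 51.6 and 49.0 CPM in control 1, 2 and 3. Control 1 lay inside the heat range. The log2 fold change was -0.46 ± 0.30 (SE, edgeR adjusted p = 0.302).

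BCL2L1, the gene of BCL-XL, overlapped between the groups. It stood at 18.1, 15.8 and 27.3 CPM in heat 1, 2 and 3, against 12.1, 16.8 and 24.3 CPM in control 1, 2 and 3. The third library of each group was its highest. The log2 fold change was 0.20 ± 0.37 (SE, edgeR adjusted p = 0.718), and it turned to -0.03 without control 1 and to -0.08 without heat 3.

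BCL2 itself, the founding member of the family, had few reads in these cells, between 72 and 79 in heat and between 47 and 75 in control. Its level was 3.93, 3.34 and 2.23 CPM in heat 1, 2 and 3, against 3.13, 3.27 and 2.33 CPM in control 1, 2 and 3. The ranges overlapped almost fully. The log2 fold change was 0.12 ± 0.39 (SE, edgeR adjusted p = 0.846) and changed sign when heat 1 or control 3 was left out.

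BCL2A1 encodes A1, a pro-survival protein best known from blood cells, where NF-kB drives it. It had 2, 0 and 2 reads in heat 1, 2 and 3, against 2, 36 and 32 reads in control 1, 2 and 3. Nearly all reads thus came from control 2 and 3, and control 1 was as low as the heat libraries. Summed over libraries, the heat rate was 0.0447 of the control rate, and its exact 95% interval, for counting error alone, ran from 0.0118 to 0.1195. BCL2A1 fell short of the filter on low counts, and without that filter edgeR gave it an adjusted p of 0.0134. The leukocyte markers LYZ, PTPRC, CD163, AIF1, CSF1R, TYROBP and FCER1G were highest in control 2 and 3 too. CD14, CD68, ITGAM, CD74 and CD3E were not highest in both. The 12 matched markers summed to 9.16, 7.20 and 1.80 CPM in heat 1, 2 and 3, against 3.33, 36.1 and 72.98 CPM in control 1, 2 and 3. LYZ made up most of this sum in control 2 and 3, at 26.2 and 54.1 CPM. It was the 1 leukocyte marker called, lower in heat (edgeR adjusted p = 0.0447), although control 1 stood at 0.467 CPM. PTPRC, the pan-leukocyte marker, was at 0 in all heat libraries and control 1 but at 1.53 and 3.17 CPM in the remaining controls, and the T cell marker CD3E had no read in any library. CD74 stood at 4.38, 3.95 and 0.397 CPM in heat 1, 2 and 3, against 0, 0.872 and 1.78 CPM in control 1, 2 and 3, and CD14 was at or below 2.24 CPM in heat and 1.80 CPM in control. The part of these markers in the BCL2A1 result was not tested.

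The relation between members of opposite role was read inside each library, where scaling cancels. Such read ratios are not corrected for transcript length and are compared only between libraries. For every 100 reads of BCL2L1 there were 58.4, 71.3 and 17.6 reads of BCL2L11 in heat 1, 2 and 3, against 20.3, 10.6 and 8.76 in control 1, 2 and 3. Heat 3 fell below control 1, so this ratio overlapped between the groups.

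For BMF against MCL1 the numbers were 34.9, 38.5 and 14.9 reads per 100 in heat 1, 2 and 3, against 14.5, 7.94 and 7.94 in control 1, 2 and 3. Heat 3 and control 1 were close here as well. The 5 pro-death genes together took 28.7, 29.6 and 16.7% of all reads of the 10 genes in heat 1, 2 and 3, against 19.0, 11.9 and 12.4% in control 1, 2 and 3. MCL1 made up 77.9 to 82.4% of the pro-survival reads in heat and 76.9 to 84.0% in control. BMF made up 61.3 to 71.3% of the pro-death reads in heat and 46.0 to 49.3% in control. The summed share thus rests largely on MCL1 and BMF. Within the pro-death reads, BID took 9.88 to 15.55% in heat and 30.75 to 43.4% in control.

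**Figure D3:**
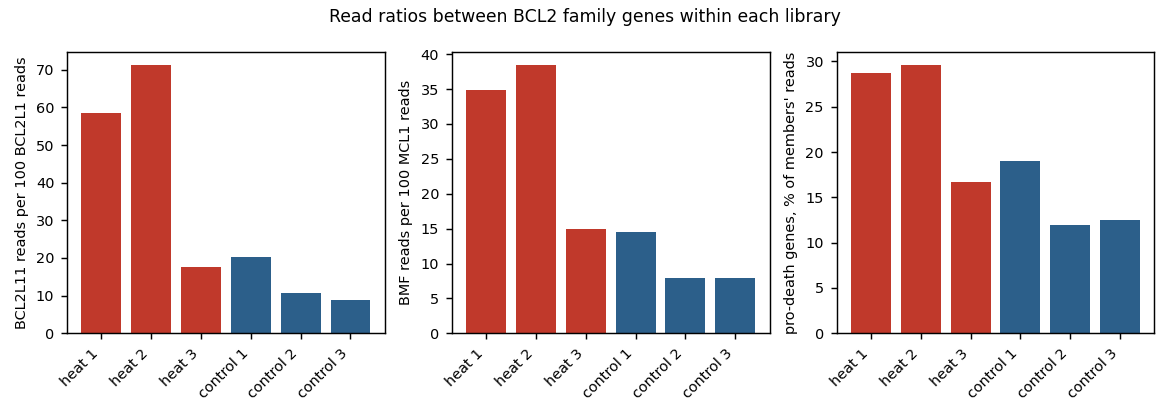
Reads of BCL2L11 per 100 reads of BCL2L1, reads of BMF per 100 of MCL1, and the 5 pro-death genes as a percentage of the reads of all 10 genes in each library, heat in red and control in blue, 1 bar per library and no error bars. Heat 3 lies below control 1 in the left panel (17.6 and 20.3) and in the right panel (16.7 and 19.0%).

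Other genes of the family and its pathway were read from lists chosen with earlier results of these data known. Of 14 further family genes, 9 matched a symbol and 7 were tested, of which 1 rose, 1 fell and 5 did not pass, beside 6.71% higher and 4.32% lower among all tested genes. BOK, a pore former related to BAK and BAX, was at 28.3, 31.3 and 21.1 CPM in heat 1, 2 and 3, against 7.73, 2.27 and 2.87 CPM in control 1, 2 and 3. This is a log2 fold change of 2.66 ± 0.51 (SE, edgeR adjusted p = 0.0325). PMAIP1, which encodes the BH3-only protein NOXA, a partner of MCL1, was at 8.37, 7.71 and 13.3 CPM in heat 1, 2 and 3, against 21.1, 51.1 and 46.3 CPM in control 1, 2 and 3. Its log2 fold change was -2.01 ± 0.43 (SE, edgeR adjusted p = 0.0375). BAX measured 6.27, 5.66 and 6.99 CPM in heat 1, 2 and 3, against 3.2, 7.63 and 9.36 CPM in control 1, 2 and 3. The groups overlapped, and BAX was not called (log2 fold change -0.10 ± 0.43 SE, edgeR adjusted p = 0.892). The median over the 7 was -0.10, beside 0.05 over all tested genes.

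The list of proteins that hold, free or modify BCL2 family proteins had 13 tested genes, and none passed in edgeR, in DESeq2 or in limma-voom, nor at an unadjusted p below 0.05 in edgeR (0 genes each). Over all 14242 tested genes, edgeR called 11.0%, DESeq2 3910 genes and limma-voom 1787 genes. An unadjusted p below 0.05 in edgeR was reached by 4831 of them. Its most abundant gene, the 14-3-3 protein YWHAZ, averaged 432 ± 312 CPM in heat and 722 ± 216 CPM in control (SD, n = 3 each; log2 fold change -0.74 ± 0.56 SE, edgeR adjusted p = 0.372). It passed without heat 3 (-1.53, adjusted p = 0.0283). The motor light chains that tether BIM and BMF did not pass either. DYNLL1 measured 67.2, 59.8 and 144 CPM in heat and 54.9, 85.3 and 96.2 CPM in control, and DYNLL2 at 52.8, 54.7 and 121 CPM in heat and 66.4, 105.9 and 103 CPM in control. The median over this list was -0.31, and 2 of its 13 values were positive and 11 negative. Over all 14242 tested genes the median was 0.05, with 7416 values positive and 6826 negative.

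Genes that act after the mitochondrial membrane opens, from cytochrome c to the apoptosome and its caspases, had 9 tested members. None passed in edgeR, DESeq2 or limma-voom, or at an unadjusted p below 0.05 in edgeR (0 genes each), and the median was -0.08. Over all tested genes edgeR called 11.0%, 4831 of 14242 had an unadjusted p below 0.05 in edgeR, and the median was 0.05. For CYCS, which encodes cytochrome c, the levels were 32.2, 28.7 and 125 CPM in heat 1, 2 and 3, against 62.8, 186 and 190.3 CPM in control 1, 2 and 3.

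Transcription factors known from human and mouse cells to act on BCL2 family genes had 14 tested members, of which 2 rose, 0 fell and 12 did not pass, beside 6.71% higher and 4.32% lower among all tested genes. At an unadjusted p below 0.05 in edgeR 6 were higher and 0 lower, beside 2777 higher and 2054 lower of all 14242 tested genes. DESeq2 called 6 higher and 0 lower, beside 2118 higher and 1792 lower of the same 14242. FOXO3, an activator of the BIM gene in those species, was at 91.97, 83.6 and 56.3 CPM in heat 1, 2 and 3, against 36.7, 19.6 and 17.3 CPM in control 1, 2 and 3. All heat libraries lay above all controls, with heat 3 the lowest of the heat group and control 1 the highest of the controls (log2 fold change 1.66 ± 0.40 SE, edgeR adjusted p = 0.0421). The NF-kB subunit RELA averaged 35.9 ± 0.969 CPM in heat and 14.6 ± 4.97 CPM in control (SD, n = 3 each; log2 fold change 1.29 ± 0.32 SE, edgeR adjusted p = 0.0456). DDIT3, the gene of CHOP, was at 66.3, 98.8 and 21.9 CPM in heat 1, 2 and 3, against 18.7, 21.3 and 19.7 CPM in control 1, 2 and 3 (edgeR adjusted p = 0.0722, not called). The median over the list was 0.71, beside 0.05 over all tested genes, and 13 of its 14 values were positive, beside 7416 of 14242 over all tested genes.

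BOK, PMAIP1, FOXO3 and RELA each lost their call when heat 1, heat 2, control 2 or control 3 was left out, with edgeR adjusted p-values between 0.138 and 0.197. In those fits the log2 fold change lay between 2.32 and 2.61 for BOK, -1.92 and -1.81 for PMAIP1, 1.42 and 1.61 for FOXO3, and 1.17 and 1.56 for RELA. With near-identical libraries summed the 4 genes had adjusted p-values between 0.247 and 0.464. RELA also lost it under scaling by library totals (adjusted p = 0.0525).

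Across the 6 libraries, the genes most like BCL2L11 among 9747 genes with a symbol and a mean log2 CPM of at least 1 were ATXN7L3, GPAA1 and GPAT4. Their Pearson r of log2 CPM was 0.999 in each case. The 6 points include near-identical libraries and the group difference itself, so these values only describe likeness. ATXN7L3, a subunit of a histone deubiquitinase, was at 28.6, 30.3 and 15.3 CPM in heat 1, 2 and 3, against 8.73, 6.23 and 7.38 CPM in control 1, 2 and 3. GPAA1, which attaches GPI anchors to proteins, was at 33.2, 33.9 and 14.98 CPM in heat 1, 2 and 3, against 8.33, 6.63 and 7.62 CPM in control 1, 2 and 3. GPAT4, which adds the first fatty acid in glycerolipid synthesis, was at 59.8, 63.05 and 43.97 CPM in heat 1, 2 and 3, against 32.1, 27.4 and 30.7 CPM in control 1, 2 and 3. All 3 showed the order of BCL2L11, with heat 3 between the other heat libraries and the controls.

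**Figure D4:**
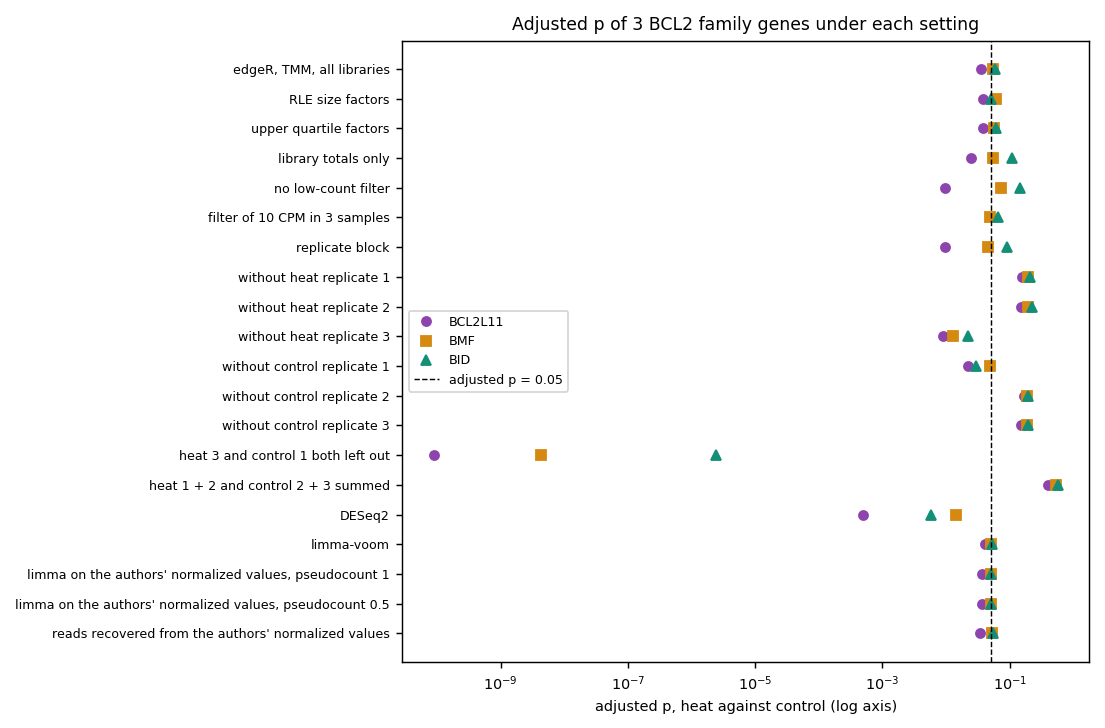
Adjusted p (log axis) of BCL2L11, BMF and BID for heat against control under every setting tried, 1 row per setting; the dashed line is 0.05. BCL2L11 lies left of the line with all libraries (0.0355) and right of it whenever heat 1, heat 2, control 2 or control 3 is left out (0.148 to 0.165) or near-identical libraries are summed (0.405), it has no value under the filter of 10 CPM in 3 samples, and all 3 genes lie far left when heat 3 and control 1 are both left out.

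Without heat 3 and control 1 together, 2 near-identical libraries a side remained. There edgeR called 12142 of 15251 tested genes, 6285 higher and 5857 lower. In that fit 7 of the 10 members were called, 2 higher (BCL2L11 and BMF) and 5 lower (BID, MCL1, BCL2L2, BAK1 and BCL2A1). BCL2A1 passed the filter on low counts there only through control 2 and 3 (36 and 32 reads, against 2 and 0 in heat 1 and 2). Its direction was thus set by its entry and is no further result. MCL1 had a log2 fold change of -1.03 (adjusted p = 2.05e-07), BCL2L2 one of -0.69 (adjusted p = 1.64e-05) and BAK1 one of -0.52 (adjusted p = 0.00725). The spread in this fit is that within the near-identical pairs, and most of the genes tested in it passed. The library closest to the left-out control 1 across all genes was the left-out heat 3, at a Pearson r of 0.920. Heat 3 over control 1, with no replicate, gave ratios of 1.96 for BCL2L11, 1.93 for BMF and 0.534 for BID. The same ratios between the means of heat 1 and 2 and of control 2 and 3 were 5.58, 2.30 and 0.533. BID thus had nearly the same ratio in both sets of libraries. MCL1 had 1.87 and 0.498, on opposite sides of 1.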

How the data were processed

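Per the submitters' processing notes, stranded mRNA libraries were processed with STAR on Sscrofa11.1 after Trim Galore, with FastQC 0.11.4. Counting tool, strand setting, annotation release and normalization method: not given in the sources used here. A deposited table of raw counts per Ensembl gene, made by the authors, was the input. The authors' deposited normalized signal is these counts for 13298 genes divided by 1 size factor per library; multiplied back, 100% of its values were whole reads within 1e-06.

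The difference between heat and control was fitted in edgeR 4.0.16 (R 4.3.3; TMM factors, robust dispersions, filterByExpr with a minimum count of 10) and tested two-sided with its quasi-likelihood F test. Benjamini-Hochberg adjustment covered the 14242 genes tested, and genes below 0.05 were called. The SE is the absolute log2 fold change over the square root of F. Total counts set the precision of low genes, and replicates had a common coefficient of variation of 43.6%. Log2 CPM for correlations used a prior count of 2.

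Symbols and coordinates came from reference tables (Ensembl identifiers and RefSeq, Sscrofa11.1). The 10 members and all lists were chosen with earlier results of these data known. Named were the 10 members, up to 3 called genes per list or its most abundant gene, and the 3 genes most like a called member; not every gene so named is reported here. BAX, CASP8, DYNLL1, DYNLL2, CYCS, DDIT3 and ACOXL fall outside that rule and were chosen after their values were seen. Of 9 members in the RefSeq table, 6 overlap another annotated locus, whose reads may be shared. Not every same-numbered pair of libraries deviated together, so the numbers were not taken as pairs. Alternatives were 3 other scalings, 2 other filters, a replicate block, leaving out single libraries, leaving out heat 3 and control 1 together, summing near-identical libraries, DESeq2 1.42.0, limma-voom, limma 3.58.1 on log2 of that signal plus a pseudocount of 1 or 0.5, and adjusted p thresholds of 0.01 and 0.10. A fit to the reads recovered from the normalized signal was added after seeing the data.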

Additional observations from a re-analysis of the deposited data

How the results depend on the processing

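With 9 tested members, 167 alternative values were computed, of which 139 kept both their direction and their side of the threshold, 14 kept their direction and newly passed, 5 no longer passed and 9 changed sign, of which 1 passed (BAK1 without heat 3 and control 1). The 5 lost calls were all of BCL2L11, whose log2 fold change stayed between 1.81 and 2.46. The sign changes were in 3 genes. BCL2 had log2 fold changes between -0.064 and 0.31 over the fits that left out 1 library, negative without heat 1 or control 3, and -0.058 with near-identical libraries summed. BCL2L1 ranged from -0.083 to 0.46, negative without heat 3 or control 1, and was -0.30 without both. BAK1 ranged from -0.30 to 0.55, negative without heat 3 or control 1, and was -0.52 without both. The cause was not tested.

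The number of members called, 1 in the reported fit, was 2 with no filter on low counts (BCL2L11 higher and BCL2A1 lower), 2 with limma-voom, 2 with limma on the authors' signal with a pseudocount of 1, 3 with DESeq2, 3 at an adjusted p below 0.10, 7 without heat 3 and control 1, 0 with near-identical libraries summed and 0 at an adjusted p below 0.01. Leaving out 1 library gave between 0 and 4. The filter of 10 CPM in 3 samples removed BCL2L11, BCL2, BAK1, BAD and BCL2A1, and the 1 call it left was BMF.

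Of all genes, 1571 were called in the reported fit, against 2457 with no filter, 928 with the filter of 10 CPM in 3 samples, 12142 without heat 3 and control 1, 2 with near-identical libraries summed, 3910 with DESeq2, 10 at an adjusted p below 0.01, 3561 at 0.10 and 1631 from the recovered reads. With limma-voom 1787 of 14242 tested genes were called. For limma on the authors' signal with a pseudocount of 1 the count was 1918 of 13298. Leaving out 1 library gave between 0 and 5530. The counts of 0, without control 2 or control 3, stood beside 3164 and 3303 genes at an unadjusted p below 0.05 in edgeR; other tools were not run on those subsets.

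With the replicate number as a block, 3406 genes and 2 members, BCL2L11 and BMF, were called. Same-numbered libraries had correlations of their deviations of 0.299, -0.23 and 0.223, and not every library correlated best with its own number. Few reads limit BCL2A1, BAD and BCL2 most.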

Other observations

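Markers of further cell types, read from lists for their levels only, moved between libraries as follows. The 4 matched markers of the ovarian surface epithelium summed to between 20.6 and 108.5 CPM in heat and between 3.92 and 22.4 CPM in control. Of the 3 tested, KRT8 and UPK3B rose and KRT7 did not pass (edgeR), beside 6.71% higher among all tested genes. The 5 theca markers summed to between 32.9 and 100.2 CPM in heat, against 76.4 CPM in control 1 but 5.67 and 6.68 CPM in the other controls; ANPEP made up nearly all of it, and INSL3 had no read. The 5 smooth muscle markers summed to between 6718 and 14670 CPM in heat and between 9969 and 10240 CPM in control. The 4 matched endothelial markers stayed at or below 10.8 CPM in heat and 9.66 CPM in control, with no read of CDH5. Of the 5 oocyte markers 2 were tested, and GDF9 rose. DDX4 did not pass (log2 fold change -0.21 ± 0.50 SE, edgeR adjusted p = 0.788). BMP15 had 0 reads over the heat libraries and 4 over the controls, and ZP2 and ZP3 had no read. The 4 erythrocyte markers summed to less than 0.1 CPM in every library. The 12 matched granulosa markers summed to between 456 and 604 CPM in heat and between 327.5 and 619 CPM in control. The part of these cell types in the results on the BCL2 family was not tested.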
